A study of Mus musculus with 6 samples.

Results

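Semaphorins, plexins, ephrins, Eph receptors and the related Slit and netrin systems are families of surface and secreted proteins that steer growing axons and vessels and set the position of cells within epithelia. The set examined here holds 61 genes of the 43274 in the deposited count table. It comprises every gene whose mouse symbol names a semaphorin (20 genes), a plexin (9), an EphA (9) or EphB receptor (5), an ephrin-A (5) or an ephrin-B (3). The neuropilins Nrp1 and Nrp2, 3 Slit ligands, Robo1 and Robo2, and netrin-1 with its receptors Dcc and Unc5b complete it. Membership was set by symbol pattern or by name, and no value served as a cutoff. The set was chosen with earlier results of these data known.

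Semaphorins are ligands and plexins are their receptors, which act on small GTPases and through them on integrin adhesion and the actin cytoskeleton. Secreted class 3 semaphorins mostly bind plexin-A proteins together with a neuropilin, whereas Sema3e binds plexin-D1 directly, transmembrane class 4 semaphorins bind plexin-B proteins or plexin-D1, and Sema7a binds plexin-C1. Ephrin-A proteins are held at the surface by a lipid anchor and ephrin-B proteins span the membrane. Both activate Eph receptor tyrosine kinases on neighbouring cells and can signal back into their own cell. In skin, several of these genes are also used by endothelial cells, nerves and leukocytes, so that their RNA is not specific to keratinocytes.

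Bulge stem cells (SCs), the resting stem cells of the hair follicle, were isolated by cell sorting on CD34 and high α6 integrin at postnatal day 21. According to the study's methods total RNA was isolated, and cDNA amplified from it was sequenced. There were 3 control (labelled ILK +/-) and 3 ILK-K5 (ILK -/-) samples. Control mice were ILK fl/+ and ILK-K5 mice ILK fl/fl, both carrying Cre under the keratin 5 promoter on a mixed C57Bl6-129/Sv background. Both genotypes therefore expressed Cre, and deletion was directed to keratin 5-expressing epithelium. Nothing in the labels says whether the samples came from separate animals, so that p-values measure the spread between these libraries only.

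Between 8228019 and 11969072 reads per library fell on genes, of which 15074 to 31278 fell on the 61 members. Ilk, the deleted gene, had 10.6, 16.7 and 38.5 normalized counts in controls 1 to 3 and 14.8, 30.9 and 29.2 in ILK-K5 1 to 3 (log2 fold change 0.30, standard error 0.64, adjusted p = 0.933 from limma). It gave no check of genotype, since other genes share 89.7% of its exon sequence. Markers of basal keratinocytes were abundant in all libraries, with 80866 to 209690.0 summed normalized counts. Cd34, on which the cells were sorted, was called lower in ILK-K5 (log2 fold change -1.90). A list of 15 macrophage genes summed to between 197 and 339 normalized counts in control and between 15528 and 22289 in ILK-K5 libraries, and all 14 that could be tested were called higher. In bulk RNA, fewer cells of a type and less RNA per cell cannot be told apart. Each control carries in its label the same code as the ILK-K5 library of its number. The codes of replicates 2 and 3 also share an ending that the code of replicate 1 lacks, and the meaning of the codes is not explained.

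In control bulge SCs the most abundant member per unit of gene length was Efnb2, the transmembrane ligand ephrin-B2, with 63.8 ± 6.48 FPKM (SD, n = 3). It was followed by the class 3 ligands Sema3c with 41.8 ± 14.2 FPKM and Sema3e with 39.7 ± 14.7 FPKM, by Efna4 with 35.6 ± 6.47 FPKM, by Efna1 with 29.7 ± 5.79 FPKM and by Sema5a with 23.3 ± 10.1 FPKM (all SD, n = 3). The control libraries of Efnb2 lay between 56.3 and 68.0 FPKM and those of Sema3c between 29.1 and 57.1, so that the ranges of the leading genes touch and the order below Efnb2 is within the spread. The receptors reached lower levels, led by Ephb3 with 20.8 ± 8.52 FPKM, Plxna2 with 16.3 ± 7.77 FPKM and Epha4 with 14.2 ± 3.53 FPKM (SD, n = 3). In all, 34 of the 61 members had a control mean of at least 1 FPKM and 13 of at least 10 FPKM. The corresponding numbers in ILK-K5 were 36 and 11.

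**Figure D1:**
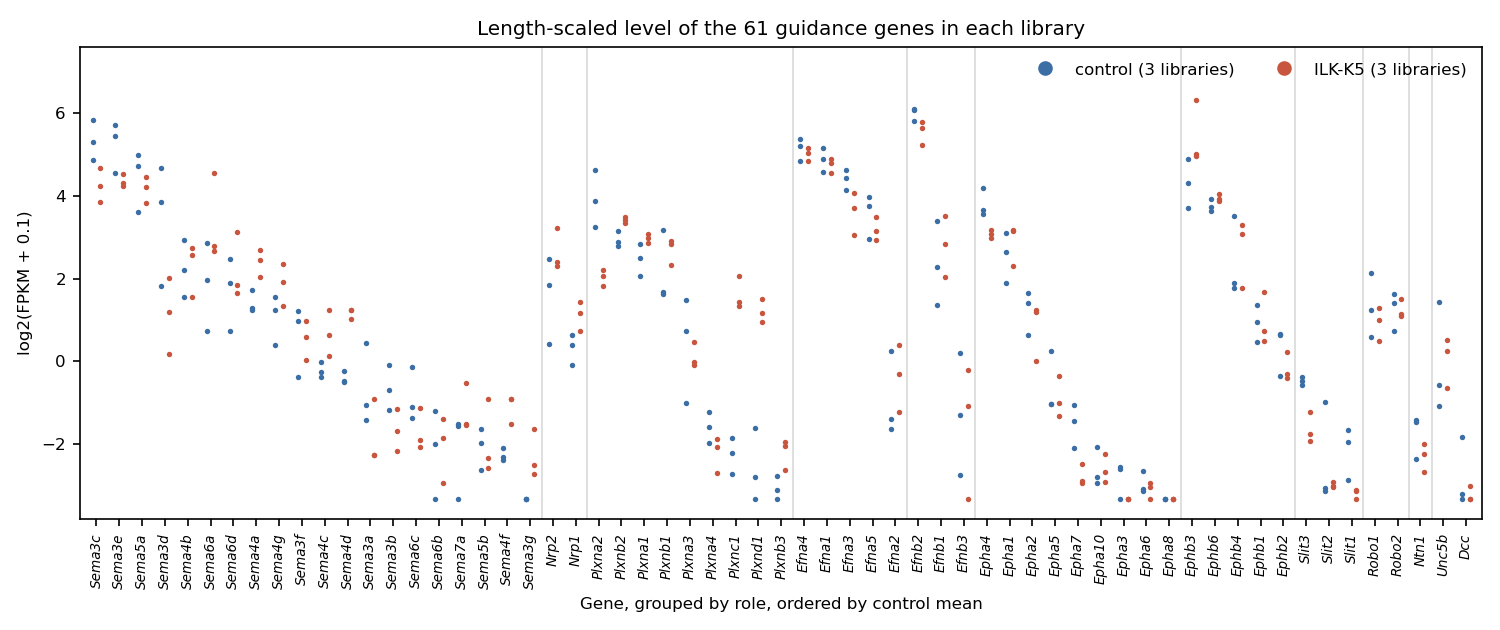
Level of each of the 61 guidance genes in each library as log2 of FPKM plus 0.1, grouped by role and ordered by the control mean (blue points, control; red points, ILK-K5; 3 libraries each). Efnb2, Sema3c and Sema3e lead in the controls, and the ILK-K5 points of Plxnc1 and Plxnd1 lie far above their control points.

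Of the 61 members, 50 had a mean of at least 10 normalized counts and were tested on a log2 scale after a pseudocount of 1 was added. The plexin receptors Plxnc1 and Plxnd1 and the ligand Sema4d were higher in ILK-K5 and Plxna2 was lower (limma, Benjamini-Hochberg adjusted p no larger than 0.05). Thus 4 members (8% of those tested) were called, where 3.53% of all 16368 tested genes were, with 2.93% called higher and 0.599% called lower. The 3 ILK-K5 libraries did not overlap the 3 control libraries for 18 members, 10 higher and 8 lower, or 36.0% of those tested. Such a separation was found for 17.9% of all tested genes, for 10.9% with ILK-K5 higher and for 6.95% with ILK-K5 lower. The median log2 fold change was -0.035 over the 50 members and 0.0054 over all tested genes, with 24 members above 0 and 26 below. A p-value under 0.05 before adjustment was found for 15 members (30% of those tested), beside 12.3% of all tested genes. With 3 libraries per genotype an exact permutation test of a single gene cannot give a p-value below 0.1.

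**Figure D2:**
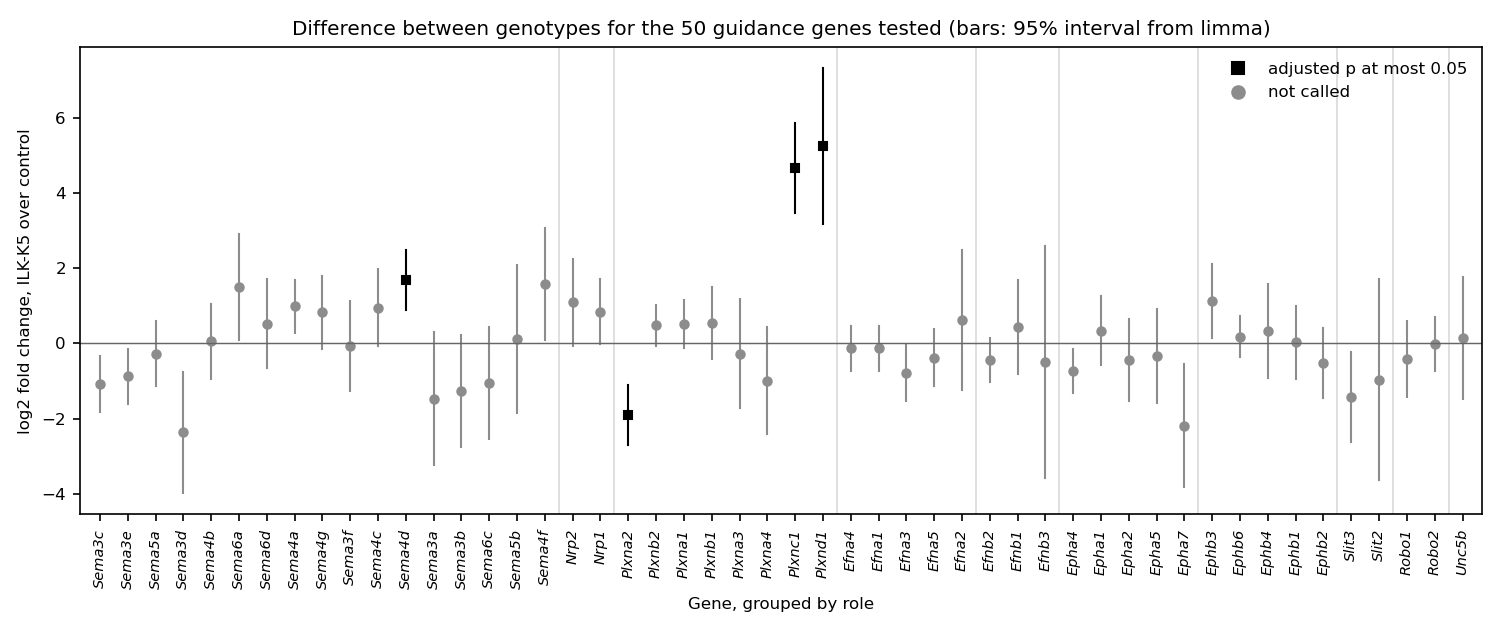
Log2 fold change between ILK-K5 and control for the 50 members tested, by role, with 95% intervals from limma (black squares, adjusted p at most 0.05; grey circles, not called). Plxnc1 and Plxnd1 lie highest, at 4.68 and 5.25, and the called fall is that of Plxna2, at -1.91.

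Plxnc1 encodes plexin-C1, the receptor of Sema7a, and is found on the minus strand at chr10:94790866-94944835 (GRCm38). Plxnd1 encodes plexin-D1, the receptor of Sema3e, and is found on the minus strand at chr6:115954811-115995005. Plxna2 encodes plexin-A2, a receptor for class 3 and class 6 semaphorins, and is found on the plus strand at chr1:194618218-194816869. The promoter windows of these 3 genes are shown because they are the called plexins, of which the first 2 rose and the last fell. Each runs from 250 bases before to 50 after a RefSeq start on GRCm38.p6, at chr10:94944796-94945095, chr6:115994956-115995255 and chr1:194619579-194619878. Capitals mark GAGGAAG, a core bound by the myeloid factor PU.1, and the paired half-sites of interferon regulatory factors, which read GAAA, any 2 bases and GAAA again, both on either strand.
Plxnc1: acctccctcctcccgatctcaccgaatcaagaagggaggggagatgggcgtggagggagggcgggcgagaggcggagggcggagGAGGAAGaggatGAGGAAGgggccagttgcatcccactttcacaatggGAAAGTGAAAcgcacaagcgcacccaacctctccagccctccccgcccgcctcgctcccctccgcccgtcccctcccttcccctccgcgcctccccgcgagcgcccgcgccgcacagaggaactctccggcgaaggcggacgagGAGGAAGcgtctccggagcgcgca
Plxnd1: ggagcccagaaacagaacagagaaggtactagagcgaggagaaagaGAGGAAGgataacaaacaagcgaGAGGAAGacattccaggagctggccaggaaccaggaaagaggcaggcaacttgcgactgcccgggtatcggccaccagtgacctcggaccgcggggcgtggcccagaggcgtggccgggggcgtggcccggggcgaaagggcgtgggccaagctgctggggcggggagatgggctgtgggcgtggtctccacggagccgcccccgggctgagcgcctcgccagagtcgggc
Plxna2: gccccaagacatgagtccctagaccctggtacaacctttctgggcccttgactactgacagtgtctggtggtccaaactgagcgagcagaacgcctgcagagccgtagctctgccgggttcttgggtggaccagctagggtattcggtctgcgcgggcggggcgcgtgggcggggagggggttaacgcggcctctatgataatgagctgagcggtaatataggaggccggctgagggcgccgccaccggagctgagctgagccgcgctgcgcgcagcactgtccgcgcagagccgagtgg
The Plxnc1 window held 3 matches to GAGGAAG and 1 to the paired half-sites, which did not overlap. The Plxnd1 window held 2 to GAGGAAG and none to the other, and the Plxna2 window held neither. Sema4d, which was also called higher, has 3 listed windows, and none of them held either motif. Among 32851 windows of the same length over all genes, 13.6% held GAGGAAG and 3.44% held the paired half-sites. Windows were found for 52 of the 61 members, and of their 68 windows 22.1% held the former and 2.94% the latter. The GC box GGGCGG was found in 72.1% of the members' windows and 35.7% of all windows, and the Tcf/Lef core CTTTGA in 5.88% and 16.0%, each on either strand. These motifs were chosen with the expression values known, and a match describes the letters only.

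Among the plexins, Plxnc1 had 3.86, 13.7 and 8.71 normalized counts in controls 1 to 3 and 312, 201 and 184 in ILK-K5 1 to 3. The ILK-K5 libraries lay more than an order of magnitude above every control. The log2 fold change was 4.68 (standard error 0.53, adjusted p = 0.00139 from limma), and it stayed between 3.88 and 5.05 with a call under all 12 alternatives and without each of the 6 libraries. Plxnd1 had 0, 3.04 and 16.0 normalized counts in the controls, from 0, 2 and 22 reads, and 150.3, 194 and 128 in ILK-K5. The genotypes again did not overlap, although the control level differed widely between libraries. Its log2 fold change was 5.25 (standard error 0.92, adjusted p = 0.0144), with a range of 3.79 to 6.497 over the alternatives. It was 4.23 without control library 1 and 6.28 without control library 3. The call was lost without control library 2 (adjusted p = 0.0819), without any single ILK-K5 library (0.0544, 0.0795 and 0.0540 without libraries 1 to 3), and with a pseudocount of 0.1 (0.0772). The macrophage list given above moved with both genes. The sums of the Langerhans or dendritic, neutrophil, T cell, fibroblast, Schwann cell and dermal papilla lists, given below, also rose without overlap. The endothelial list, whose cells are also known for Plxnd1, summed to 118 to 247 normalized counts in control and 136 to 143 in ILK-K5, and Cldn5 was at 0 in the controls. None of its 3 tested genes was called with limma or edgeR, while Tek had an unadjusted p under 0.05 in the lower direction and DESeq2 called 1 gene lower. Whether RNA of any of these cell types contributes to the rise of the receptors was not tested.

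Plxna2 was the dominant plexin of control bulge SCs. It had 4140.0, 1578 and 2457 normalized counts in controls 1 to 3 and 755, 579 and 687 in ILK-K5 1 to 3. The controls varied widely among themselves, and all of them lay above all ILK-K5 libraries. The log2 fold change was -1.91 (standard error 0.36, adjusted p = 0.0190 from limma), or a mean of 2725 ± 1302 against 674 ± 88.5 normalized counts (SD, n = 3). The call was kept without any 1 control library and lost without any 1 ILK-K5 library (adjusted p = 0.0522, 0.0909 and 0.0709 without libraries 1 to 3). The log2 fold change was -1.998, -1.81 and -1.93 without ILK-K5 libraries 1 to 3. It was -1.555, -2.25 and -1.93 without control libraries 1 to 3.
None of the remaining plexin-A genes was called with limma, edgeR or DESeq2, and none had an unadjusted p under 0.05 in limma (0 of 3). Plxna1, also a receptor for secreted and class 6 semaphorins, had 492, 360.4 and 615 normalized counts in control and 687, 737 and 633 in ILK-K5 (log2 fold change 0.52, 95% interval -0.11 to 1.15, adjusted p = 0.554 from limma). The genotypes did not overlap, by a margin smaller than the spread within the controls, and 10.7% of its exon bases are shared with an antisense gene. Plxna3 and Plxna4 had log2 fold changes of -0.27 and -0.99 with adjusted p-values of 0.939 and 0.663.
Of the plexin-B genes, receptors of class 4 semaphorins, Plxnb2 had 476, 508 and 607 normalized counts in control and 775, 737 and 700.4 in ILK-K5 (log2 fold change 0.48, interval -0.064 to 1.03, adjusted p = 0.506). Plxnb1 overlapped between the genotypes, with adjusted p = 0.762 at a log2 fold change of 0.54. Plxnb3 was under the filter, with at most 4 reads in a control and 4 to 13 in an ILK-K5 library.

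These shifts changed the make-up of plexin RNA within each library, a measure on which the scaling between libraries has no bearing. Plxna2 made up 57.3%, 37.9% and 35.4% of the summed plexin FPKM in controls 1 to 3 and 12.4%, 9.60% and 12.03% in ILK-K5 1 to 3. Every control was thus well above every ILK-K5 library. Within plexin-A alone, its share was 67.8 ± 6.002% in control and 31.1 ± 3.48% in ILK-K5 (SD, n = 3). In ILK-K5 the largest share was that of Plxnb2, with 29.96 ± 0.745%, followed by Plxna1 with 22.0 ± 1.14%. Plxnc1 and Plxnd1, which made up 0.371% and 0.241% of plexin FPKM in the controls on average, accounted for 8.54% and 6.30% in ILK-K5.

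**Figure D3:**
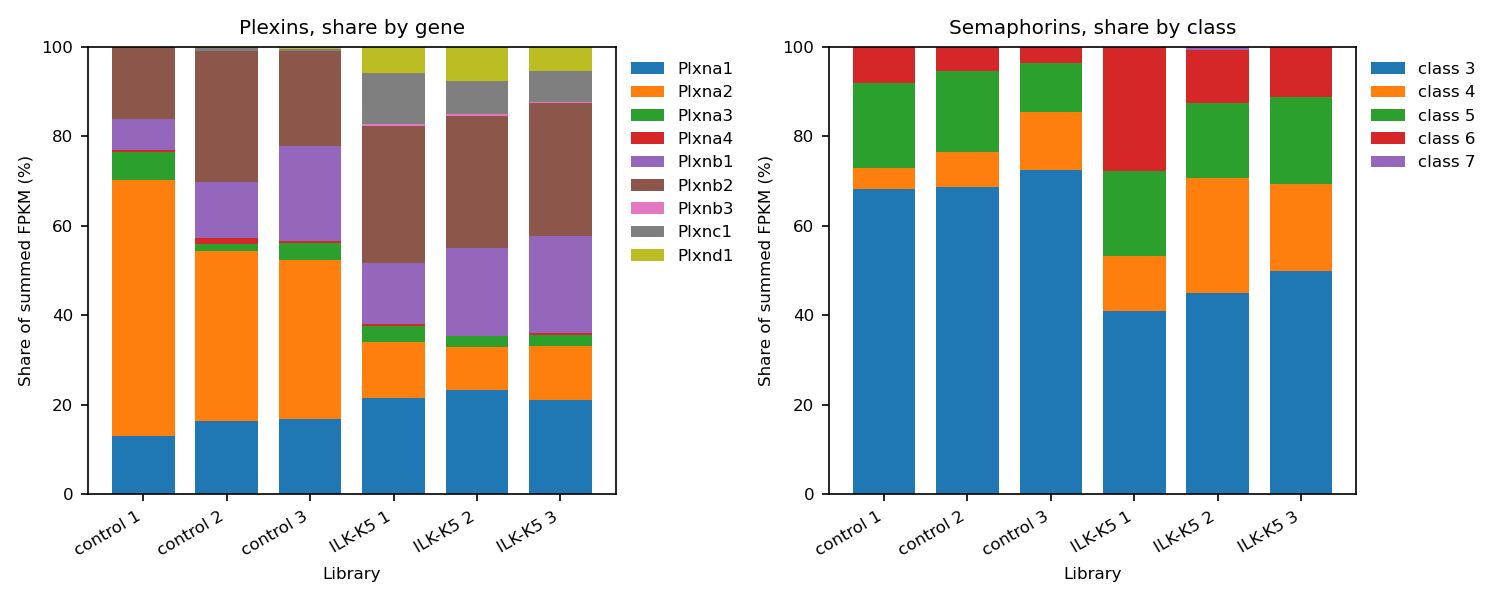
Share of summed FPKM in each of the 6 libraries, by gene for the 9 plexins (left) and by class for the 20 semaphorins (right). Plxna2 takes 35.4% to 57.3% of plexin FPKM in the controls and 9.60% to 12.4% in ILK-K5, and class 3 takes 68.4% to 72.5% of semaphorin FPKM in the controls and 40.9% to 49.8% in ILK-K5.

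The neuropilins, which bind class 3 semaphorins and vascular endothelial growth factors, had positive log2 fold changes without a call. Nrp1 had 69.5, 83.6 and 48.6 normalized counts in control and 150.3, 90.2 and 124 in ILK-K5, so that the libraries did not overlap (log2 fold change 0.85, 95% interval -0.023 to 1.72, adjusted p = 0.427 from limma). Nrp2, the more abundant neuropilin per length, had 628, 403 and 143 normalized counts in control and 1061, 561 and 600.0 in ILK-K5, with overlap between the genotypes (log2 fold change 1.10, interval -0.064 to 2.26, adjusted p = 0.453).

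Among the 20 semaphorins, 17 could be tested and only Sema4d was called with limma. Sema4d, a transmembrane ligand of plexin-B1 and plexin-B2 that is also known from lymphocytes, maps to chr13:51685529-51793747 on the minus strand. It had 38.6, 47.1 and 39.2 normalized counts in controls 1 to 3 and 143, 143 and 121 in ILK-K5 1 to 3. Libraries within a genotype were tight and the genotypes were far apart (log2 fold change 1.68, standard error 0.35, adjusted p = 0.0327 from limma). The call rests on all 6 libraries, as the adjusted p-value was between 0.0545 and 0.207 whenever any 1 of them was left out, and it was 0.108 with replicates 2 and 3 alone. The macrophage list and the other lists that rose moved with Sema4d. Among these was the T cell list, which summed to 119 to 173 normalized counts in control and 305 to 352 in ILK-K5. Of its 5 tested genes Cd4 and Cd2 were called higher. Cd3d had a log2 fold change of -0.47, and Trac, Cd8a and Lck were under the filter. The part of these cell types in the difference in Sema4d was not tested.
All 6 class 4 genes had a positive log2 fold change, with a median of 0.97, except that Sema4b turned negative under quantile normalization and without control library 1, ILK-K5 library 2 or ILK-K5 library 3. Sema4a, a ligand of plexin-B proteins and plexin-D1, had 124, 120.1 and 169.8 normalized counts in control and 213, 333 and 282 in ILK-K5 (log2 fold change 0.99, interval 0.28 to 1.70, adjusted p = 0.174). Sema4c, a ligand of plexin-B2, had 32.8, 39.5 and 29.7 in control and 101, 64.8 and 44.8 in ILK-K5 (log2 fold change 0.96, adjusted p = 0.466). Both were separated between genotypes without reaching the threshold. The same was true of Sema4f, which was scarce, with 6.75, 4.56 and 5.08 normalized counts against 21.6, 21.6 and 12.7 (log2 fold change 1.58, adjusted p = 0.360).

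All 6 of the secreted class 3 ligands that could be tested had a negative log2 fold change, with a median of -1.18, except that Sema3f turned positive without control library 2, control library 3 or ILK-K5 library 1. None was called with limma, while 3 had an unadjusted p-value under 0.05. edgeR called none of them and DESeq2 called Sema3d.
Sema3c, the most abundant semaphorin of control bulge SCs, had 3977, 2729 and 2026 normalized counts in controls 1 to 3 and 1774, 993 and 1311 in ILK-K5 1 to 3. Each ILK-K5 library was below each control, and the replicate 1 library was the highest of its genotype (log2 fold change -1.08, interval -1.83 to -0.33, adjusted p = 0.154 from limma, or 0.0214 with a replicate block). Sema3e, the ligand of plexin-D1, had 3857, 3214 and 1736 in control and 1454, 1399 and 1712 in ILK-K5, where control library 3 and ILK-K5 library 3 were nearly equal (log2 fold change -0.88, adjusted p = 0.278). Without control library 3 the adjusted p was 0.0448, and without any other single library it was between 0.453 and 0.694, with a log2 fold change as small as -0.64.
Sema3d had the most negative log2 fold change of all members, although its libraries overlapped and it is described for that reason after its values were seen. It had 218, 914 and 1608 normalized counts in control and 66.0, 138 and 251 in ILK-K5. Replicate 1 was the lowest library of each genotype, and control library 1 lay below ILK-K5 library 3. The log2 fold change was -2.37 (standard error 0.72, adjusted p = 0.146 from limma), -2.69 with replicates 2 and 3 alone (adjusted p = 0.0197), and -3.19 without control library 1 (adjusted p = 0.0124). It was -1.75 without control library 3 (adjusted p = 0.251), -1.87 without ILK-K5 library 1 (0.348) and -2.16 without control library 2 (0.451). With a replicate block the adjusted p was 4.5e-04. Sema3a and Sema3b, both under 1 FPKM, had log2 fold changes of -1.48 and -1.27 (adjusted p = 0.549 and 0.531).
Class 3 as a whole made up 68.4%, 68.7% and 72.5% of the summed semaphorin FPKM in controls 1 to 3, and 40.9%, 45.1% and 49.8% in ILK-K5 1 to 3. The genotypes were apart by more than the range within either. The share of class 4 was 8.48 ± 4.15% in control and 19.1 ± 6.65% in ILK-K5, with ranges that overlapped between control library 3 and ILK-K5 library 1. Class 6 made up 5.61 ± 2.36% and 16.8 ± 9.27% (SD, n = 3), the latter led by ILK-K5 library 1 with 27.5%.

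The class 5 and class 6 semaphorins are membrane proteins that bind mainly plexin-A receptors. Sema5a, the most abundant of them, overlapped between the genotypes (log2 fold change -0.27, interval -1.13 to 0.59, adjusted p = 0.891 from limma). Sema6a, a ligand of plexin-A2 and plexin-A4 that is mentioned here after its values were seen, had 617, 327 and 134 normalized counts in control and 1991, 532 and 581 in ILK-K5 (log2 fold change 1.498, adjusted p = 0.359). In both genotypes the replicate 1 library was the highest, and without ILK-K5 library 1 the log2 fold change was 0.88. With a replicate block, or with a term for the code ending that replicates 2 and 3 share, Sema6a and Ephb3 were called higher and Sema3c and Sema3d lower, which made 5 members higher and 3 lower in place of 3 and 1. With replicates 2 and 3 alone, 2 members were higher (Plxnc1 and Plxnd1) and 2 lower (Plxna2 and Sema3d). Replicate 1 has 1 library per genotype and gives no test of its own.

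Setting ligands beside their known receptors, Sema3c and Sema3e stood at 41.8 and 39.7 FPKM in control while plexin-D1 stood at 0.0903 FPKM, and in ILK-K5 these levels were 19.5, 20.6 and 2.24 FPKM. Sema7a, the ligand of plexin-C1, was under the filter with 0 to 25 reads in a library. Sema4d and its receptors had log2 fold changes of 1.68 for the ligand, 0.54 for Plxnb1 and 0.48 for Plxnb2. The 31 pairs set side by side were of semaphorins, Slit2 and Ntn1, without ephrins and Eph receptors, and 27 had both partners tested. None of these had both called in the limma comparison by genotype or in edgeR, and DESeq2 called Sema3d lower with Plxnd1 higher. Limma also called both of this pair with replicates 2 and 3 alone and without control library 1, and Sema3e with Plxnd1 without control library 3. With a replicate block it called both of Sema3d and Plxnd1, Sema3c and Plxnd1, Sema3c and Plxna2, and Sema6a and Plxna2.

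**Figure D4:**
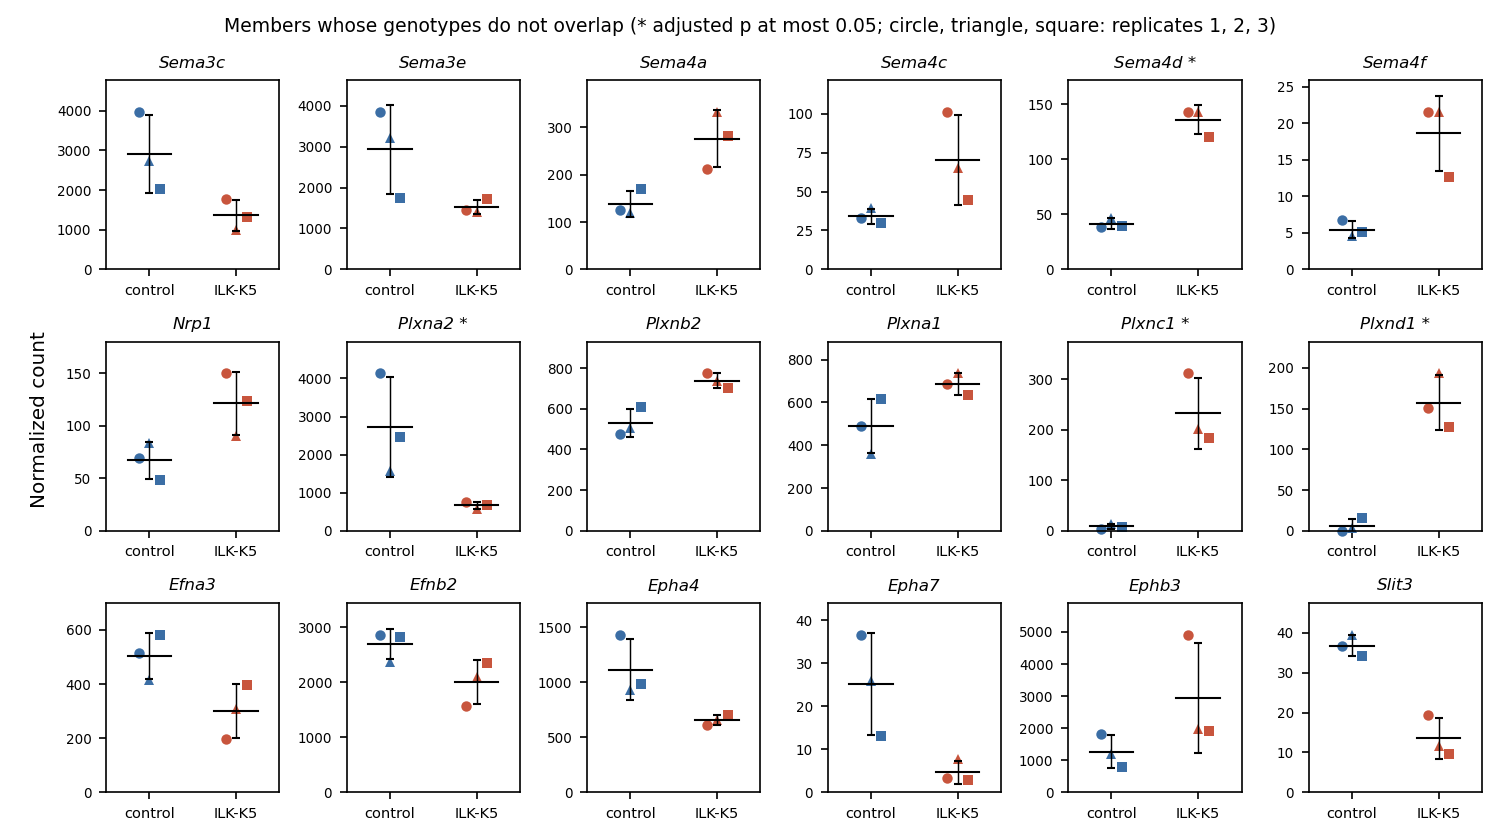
Normalized counts of the 18 members whose libraries did not overlap between the genotypes (circle, triangle and square, replicates 1, 2 and 3; line and bar, mean and SD of 3 libraries; asterisk, adjusted p at most 0.05). Sema4d, Plxnc1 and Plxnd1 show groups far apart, while Ephb3 and Sema3e show nearly touching ones.

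None of the 18 tested Eph receptors and ephrins was called by genotype alone with limma, edgeR or DESeq2, and 4 had an unadjusted p-value under 0.05 in limma. Ephb3, an EphB receptor that is known as a Wnt target in the intestine, had 1828, 1203 and 790.2 normalized counts in controls 1 to 3 and 4917, 1971 and 1914 in ILK-K5 1 to 3. The lowest ILK-K5 library barely exceeded the highest control, and replicate 1 was the highest of each genotype (log2 fold change 1.14, interval 0.15 to 2.12, adjusted p = 0.292 from limma). Without ILK-K5 library 1 the log2 fold change of Ephb3 was 0.69. With a replicate block Ephb3 was called higher (adjusted p = 0.0147), as it was with the term for the code ending (0.01695). Ephb6, which lacks kinase activity, overlapped, with a log2 fold change of 0.18 and an interval of -0.36 to 0.73. Ephb1, Ephb2 and Ephb4 overlapped between the genotypes, with log2 fold changes of 0.030, -0.51 and 0.34.
Epha4, the most abundant EphA receptor, had 1436, 928 and 988 normalized counts in control and 616, 659 and 700.4 in ILK-K5. The ILK-K5 libraries were close together and all below the controls (log2 fold change -0.74, interval -1.33 to -0.14, adjusted p = 0.248). Epha7 was much scarcer and also separated, with 36.7, 25.8 and 13.1 normalized counts against 3.42, 7.71 and 2.92 (log2 fold change -2.19, adjusted p = 0.200). Epha1, Epha2 and Epha5 overlapped, with adjusted p-values of 0.867, 0.842 and 0.906. Within the libraries, EphA genes made up 34.2%, 34.3% and 37.6% of the summed Eph receptor FPKM in controls 1 to 3. Their share was 12.5%, 24.9% and 26.0% in ILK-K5 1 to 3, without overlap. The EphA sums themselves overlapped, with 26.1, 20.2 and 24.8 FPKM in control and 14.4, 20.1 and 20.4 in ILK-K5. The EphB sums, led by Ephb3, were 50.3, 38.8 and 41.2 in control and 101, 60.7 and 57.9 in ILK-K5, so that the share also reflects their rise.
Of the ephrin ligands, Efnb2 had 2868, 2375 and 2825 normalized counts in control and 1568, 2101 and 2343 in ILK-K5. The genotypes were separated by only the small gap between control library 2 and ILK-K5 library 3 (log2 fold change -0.44, interval -1.03 to 0.15, adjusted p = 0.625). Efna3 had 514, 414 and 583 in control and 196, 308 and 397 in ILK-K5 (log2 fold change -0.79, adjusted p = 0.349), and 14.1% of its exon bases are shared with an antisense gene. Efna4, the most abundant ephrin-A, had 644, 578 and 446 against 559, 514 and 443, with overlap and an interval from -0.72 to 0.47. Efna1, Efna2, Efna5, Efnb1 and Efnb3 also overlapped, with adjusted p-values between 0.792 and 0.948.

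The Slit, Robo and netrin members were less abundant, and none of the 5 tested was called with limma, edgeR or DESeq2, with 1 at an unadjusted p under 0.05. This was Slit3, a secreted ligand of Robo receptors, which had 36.7, 39.5 and 34.1 normalized counts in control and 19.4, 11.6 and 9.74 in ILK-K5. The controls were tight and all above the ILK-K5 libraries (log2 fold change -1.43, interval -2.63 to -0.23, adjusted p = 0.273 from limma). Robo1, a receptor of Slit ligands, had 104, 167 and 315 against 174, 96.4 and 139 (log2 fold change -0.41, adjusted p = 0.844), and Robo2 had a log2 fold change of -0.0067 with an interval of -0.73 to 0.71. Slit2 rested on control library 1, with 59.8 normalized counts where no other library exceeded 4.87. Unc5b, a netrin receptor, had 32.8, 21.3 and 149 against 30.7, 61.7 and 76.0, with wide overlap (log2 fold change 0.14, adjusted p = 0.973).
The 11 members under the filter held few reads in every library. Epha8 had 0 reads in all 6 libraries, each of which allows up to 3 reads, and Epha3, Epha6, Epha10 and Dcc did not exceed 15. Ntn1 had 6, 11 and 22 reads in control and 3, 12 and 7 in ILK-K5, and Sema6b had 0 to 18. Slit1 had 13, 6 and 3 reads in control and 0, 1 and 1 in ILK-K5. Sema3g, known from endothelial cells, had 0 reads in each control and 3, 3 and 10 in ILK-K5. Without the filter on low counts no member was called beyond those called with it, and a change in these genes was not detectable at this depth.

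Further genes of the same pathways were examined from fixed lists. Of 28 further ligands, receptors and receptor partners, 17 were tested, 2 were called higher and none lower with limma. Flt1, a receptor of vascular endothelial growth factors, had 55.0, 18.2 and 25.4 normalized counts in control and 148, 166 and 184 in ILK-K5 (log2 fold change 2.45, standard error 0.46, adjusted p = 0.0208). Cd72, a lymphocyte receptor of Sema4d, had 30.9, 4.56 and 18.9 against 92.2, 138 and 109 (log2 fold change 2.89, adjusted p = 0.0466), but 41.6% of its exon sequence is shared with Tesk1 on the opposite strand and the count is uncertain. Of 49 intracellular transducers, 46 were tested and Dpysl2 was called, a collapsin response mediator that relays semaphorin signals to microtubules. It had 8.68, 7.603 and 20.3 normalized counts in control and 200.4, 243 and 238 in ILK-K5, without overlap (log2 fold change 4.23, standard error 0.47, adjusted p = 0.00133). Over both lists 3 of the 63 tested genes were called, all higher (4.76%), beside 2.93% of all tested genes called higher. An unadjusted p-value under 0.05 from limma was found for 13 in the higher and 4 in the lower direction. These were 20.6% and 6.35% of the 63, beside 8.18% and 4.11% of all tested genes. DESeq2 called 6 higher and edgeR 2, with none lower in either. Over all 16368 tested genes, DESeq2 called 772 higher and edgeR 422. Ntn4, a netrin ligand, had 131, 430 and 279 normalized counts in control and 2024, 693 and 803 in ILK-K5. It did not overlap and was not called (log2 fold change 2.05, adjusted p = 0.0705 from limma). Neo1, a netrin receptor, had 4255, 2313 and 1777 against 1794, 1341 and 1375, with overlap (log2 fold change -0.80, adjusted p = 0.385 from limma). Robo4, Kdr and Flt4, receptors typical of endothelial cells, were under the filter. The median log2 fold change was 0.16 for the first list and 0.27 for the second, beside 0.0054 over all tested genes.

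Among the lists of other cell types, Langerhans or dendritic genes summed to 538 to 1509 normalized counts in control and 17814 to 33228 in ILK-K5. Of 8 tested genes 4 were called higher, namely Epcam, Itgax, Cd74 and H2-Ab1. Epcam was the largest part of each control sum, with 453.5, 475.9 and 812.7 normalized counts in controls 1 to 3. H2-Ab1 and Cd74 made up most of each ILK-K5 sum. Cd207, Flt3, Zbtb46 and Xcr1 had positive log2 fold changes without a call, and Ccr7 was under the filter. Neutrophil genes summed to 33.5 to 54.0 and 219 to 298 (2 of 4 higher, with Ly6g and Elane at 0 in ILK-K5). Fibroblast genes summed to 703 to 782 and 1560 to 2545 (2 of 6 higher). Dermal papilla genes summed to 72.6 to 124 and 161 to 367 (1 of 2 higher), with Sox2 at 0 in all libraries. The rise in this sum was that of Vcan, while Hhip, the other tested gene, had a log2 fold change of -2.40 without overlap (adjusted p = 0.160 from limma) and DESeq2 called 1 gene of the list lower. Schwann cell genes, which summed to 314 to 389 and 599 to 979, had none of 4 called with limma or edgeR, 1 called by DESeq2 and 1 at an unadjusted p under 0.05. Melanocyte genes summed to 680 to 1308 and 269 to 478 (1 of 5 lower). The fall in this sum was that of Mitf, the gene called. Mitf had 1136, 868 and 596 normalized counts in control and 258, 192 and 254 in ILK-K5. Tyrp1 had a log2 fold change of 3.29 without overlap (adjusted p = 0.119 from limma) and Dct one of 0.597. Differentiated keratinocyte genes summed to 3098 to 17925 and 4528 to 7942 (1 of 8 lower), and bulge genes had 2 of 10 called lower, Cd34 and Fgf18. Of the 10 bulge genes, 3 had a positive and 7 a negative log2 fold change. Tcf7l1 and Gata6 were higher in ILK-K5 without overlap or a call (0.39 and 1.9), and Nfatc1 was lower in the same way (-0.60). Lhx2, Lgr5 and Sox9 overlapped (-0.10, -0.045 and 0.26), as did Krt15 and Foxc1 (-1.16 and -1.07). The part of these cell types in the values of the guidance genes was not tested.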

How the data were processed

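Bulge SC libraries were prepared from amplified cDNA with Nextera XT. According to the study's methods, the authors removed adapters and ribosomal reads, aligned read pairs to GRCm38 and analysed them in DESeq2 1.6.3. The processing notes of the submitters also name TopHat2 2.0.14 and Bowtie2 2.2.4. The program that counted reads, its use of strand and its treatment of overlapping genes are not given in the sources used here. The signal deposited by the authors is a table of normalized counts, in which the reads of each gene were scaled by 1 size factor per library. All values (100% per library) were whole multiples of the smallest, within a relative tolerance of 1e-06, so that reads were recovered. At this depth 1 read equals 0.726 to 1.52 normalized counts. The deposited FPKM values differ from these by a fixed factor for each gene and were used for levels between genes. The tables of the authors' own comparison (mean, log2 fold change, its error, test statistic and p-values) were not used.

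Symbols, coordinates and exon overlaps came from GENCODE M21 (GRCm38), which matched 42193 of 43274 identifiers (97.5%), and promoter windows from RefSeq. Genotypes were compared with limma 3.58.1 under R 4.3.3 (lmFit, then eBayes with the trend option), applied to log2(normalized count + 1), for genes with a mean of at least 10, with Benjamini-Hochberg adjustment over all tested genes. Tests were two-sided. A check on simulated data planted only large changes in genes with ample counts. It does not cover small changes or scarce genes. edgeR 4.0.16 and DESeq2 1.42.0 were run on the recovered reads, which gave 422 higher and 87 lower genes in edgeR and 772 and 280 in DESeq2, against 479 and 98 in limma. Python 3.11.15, pandas 2.3.3 and matplotlib 3.10.9 were used for tables and plots. Values per library are given for called members, for members whose libraries did not overlap between genotypes, and for the most abundant member of each role. The members, lists and tests were chosen with earlier results of these data known. Intervals and floors cover counting error or the spread of these libraries only.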

Additional observations from a re-analysis of the deposited data

How the results depend on the processing

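Plxnc1 was called under all 12 alternatives that keep both genotypes complete or keep replicates 2 and 3, and without each single library. Plxna2 was called under the same 12, Plxnd1 under 11 and Sema4d under 9 of them, and without single libraries in 3, 2 and 0 of 6 fits. The calls lost were Plxnd1 with a pseudocount of 0.1, and Sema4d with the FPKM table (adjusted p = 0.0551), with quantile normalization (0.0518) and with replicates 2 and 3 only. Without a single library, 1 to 2 members were called higher and 0 to 2 lower, 1 to 3 genes of the further lists were called higher, and the median log2 fold change of the members was -0.15 to 0.029. Members called lower numbered 2 in DESeq2 and 2 with replicates 2 and 3, in both of which Sema3d was added. Genes of the further lists called higher numbered 6 in DESeq2 and 1 with the FPKM table. The median of the members was -0.16 in DESeq2, -0.14 in edgeR, -0.14 with quantile normalization, 0.058 when the minimum mean was raised to 50 and 0.10 with replicates 2 and 3. The cause of these shifts was not tested.

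Whether the replicate numbers pair the samples is not established. Same-numbered libraries of both genotypes share a label code and controls are described as littermates, but no source ties a code to a litter. Deviations of same-numbered libraries from their group means correlated across genes at 0.53, 0.020 and 0.31 for replicates 1 to 3. Control library 3 correlated best with ILK-K5 library 2 (0.50). Deviations from a mean of 3 libraries depend on each other, so that these values cannot decide whether the samples are paired. With a replicate block, 5 members were higher and 3 lower, and 7 genes of the further lists were higher, with 848 higher and 269 lower genes in all. With the term for the code ending that replicates 2 and 3 share these were 5 and 3 members, 6 genes of the further lists, and 846 and 286 genes. The sign of the log2 fold change turned under at least 1 alternative for 15 of the 50 tested members, of which 0 were called. Among members named by the rule for values, these were Robo1 and Unc5b. Robo1 had a log2 fold change of 0.0079 without control library 3 and a range of -0.79 to 0.0079 without single libraries. Unc5b had -0.30 in DESeq2, -0.31 in edgeR, -0.0081 with quantile normalization, and -0.12, -0.11 and -0.41 without ILK-K5 library 3, control library 1 and control library 2, in a range of -0.41 to 0.96 without single libraries. Depth limits the 11 members under the filter and the control values of Plxnc1 and Plxnd1.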
